A study of Hydra vulgaris with 12 samples.

Results

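A set of 200 abundant transcripts of the freshwater polyp Hydra vulgaris, strain AEP, was followed through mRNA, small RNA and degradome libraries. They were 200 of the 38747 transcripts in the tables, and they were chosen by measured values. A member had under 1 CPM (a counts-per-million value, scaled to the total of its column) of antisense small RNA in both Hywi immunoprecipitates (IPs) and under 50 CPM of sense small RNA in both Hyli IPs. It also had under 10 CPM in both degradome libraries. Of the 24200 transcripts within all 6 limits, the 200 with the highest mean mRNA level in the wild-type sibling libraries were kept. The tables name transcripts by number, and 0 of these names matched the RefSeq gene table (assembly HydraT2T_AEP), so each member is given by its transcript name and without a gene role.

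The names Hywi and Hyli stand for a pair of PIWI proteins. Such proteins bind piRNAs, small RNAs that guide them to transcripts with matching sequence, and a guided PIWI protein can slice its target. In the amplification cycle known as ping-pong, an antisense piRNA directs the slicing of a transcript and the fragment becomes a sense piRNA held by the partner protein. A degradome library holds the 5′ ends of polyadenylated RNAs that carry no cap, because the adapter is ligated without removing the cap. Such ends are left by slicing and also by general mRNA decay.

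The mRNA was measured in whole animals, 10 pooled per library, 4 days after hatching, in 3 hywi knockdown and 3 wild-type sibling libraries. Knockdown animals carried a hywi hairpin transgene expressed in epithelial stem cells and were offspring of the hywi RNAi-1 line. The siblings came from the same line and lacked the transgene. Hairpin expression was thus labelled for epithelial stem cells only, while the RNA came from whole animals. Small RNA came from Hywi and Hyli IPs of 225 pooled animals each, and the degradome from 20 pooled animals, with 1 library per condition. The wild-type animals of these libraries had the genotype wild type. The other condition was colchicine-treated animals of the cnnos1::GFP transgenic line, labelled as depleted of interstitial cells and called epithelialized, so drug, cell loss and line cannot be told apart. All animals were kept at 18 °C. No marker gene could be matched to a transcript name, so neither the loss of interstitial cells nor the level of hywi was checked here. The mRNA libraries held 22.2 M to 27.6 M estimated counts, and the degradome libraries held 765341 (wild type) and 176897 (colchicine).

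The 200 members spanned an 8.63-fold range of wild-type mRNA level. The first in rank had a mean of 1316 CPM, the hundredth had 216 CPM and the last had 152 CPM. Most lay near the low end, with 16 members over 500 CPM, 46 over 300 CPM and 115 over 200 CPM. These CPM levels are not divided by length, so they are not compared as molecules between members. The cut at 200 fell between t22377aep at 152.49 CPM and t5260aep at 152.47 CPM, so the lower end of the list is arbitrary. In all, the members took 5.30%, 5.41% and 5.62% of the wild-type libraries and 5.14%, 5.36% and 5.23% of the knockdown libraries. The means were 5.44% ± 0.162 and 5.24% ± 0.110 (SD, n = 3 each), and the ranges overlapped. Compared by replicate number, the share was lower in knockdown in each of the 3 pairs. The 895 other transcripts at least as abundant as the last member took 56.6%, 58.2% and 59.7% of the wild-type libraries. In knockdown they took 54.1%, 57.7% and 57.2%, also lower at each number.

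The first in rank, t19167aep, had 1096, 1371 and 1479 CPM in wild-type libraries 1, 2 and 3 and 872, 1301 and 1204 CPM in the knockdown libraries. The second, t7148aep, had 681, 1230.2 and 1490.1 CPM in wild type and 564, 1005 and 1238 CPM in knockdown. Both were lowest in library 1 of each group, and the groups overlapped. The transcript t19254aep ran the other way, with 1041, 697 and 856 CPM in wild type and 1099.9, 754 and 759 CPM in knockdown, so that library 1 was highest in each group. The sixth, t25351aep, had 584, 874 and 901 CPM in wild type and 414, 727 and 840.2 CPM in knockdown, again lowest in library 1. The eighth, t14557aep, was even across libraries, at 738, 724 and 761 CPM in wild type and 629, 721 and 669.7 CPM in knockdown, with every knockdown library just below every wild-type one. The other 5 of the first 10 (t1693aep, t9945aep, t16296aep, t7698aep and t19273aep) lay between 605 and 918 CPM in the 6 libraries, and in each of them the groups overlapped.

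**Figure D1:**
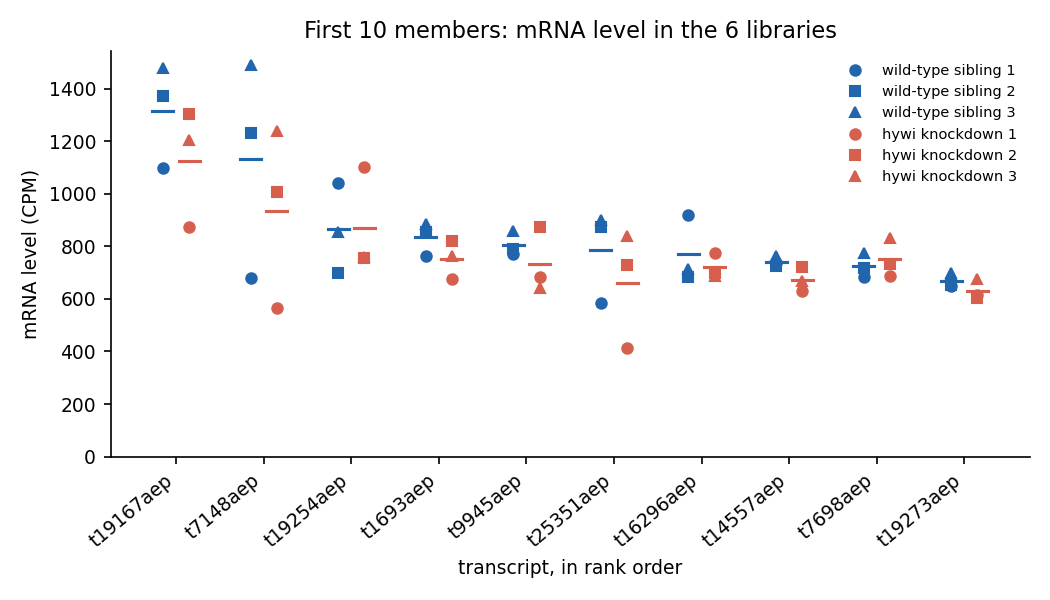
mRNA level in CPM (linear axis from 0) of the first 10 members in rank, in 3 wild-type sibling (blue) and 3 hywi knockdown (red) libraries. Each marker is 1 library, its shape gives the replicate number and each bar is a group mean. The groups overlap for all of them except t14557aep, and t7148aep spans 564 to 1490.1 CPM.

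The rule's own columns show how the members were set apart, and are given as a description. Most abundant transcripts were left out by the degradome limits. Of the 1095 transcripts at least as abundant as the last member, 660 (60.3%) passed the wild-type degradome limit and 688 (62.8%) the colchicine one. The Hywi antisense limits were passed by 42 and 199 of the 1095, and the Hyli sense limits by 43 and 135. Of the 895 abundant transcripts that were not members, 579 went past degradome limits only, 25 past IP limits only and 291 past both kinds.

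The label of a piRNA-free set did not hold in the counts. Each of the 200 had a count in at least one of the 6 columns, and 164 had more than 3 Hyli sense counts in both conditions. Only 2 members had 3 counts or fewer in all 6 columns. They are therefore called piRNA-poor here. The median member had 1.49 CPM of Hyli sense small RNA in wild type and 4.64 in colchicine, against 3.75 and 13.2 CPM in the 895 other transcripts. For Hywi antisense the median member had 0.0388 CPM in wild type, and 0.226 CPM in the colchicine library, and 173 members had 3 counts or fewer in wild type.

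Capless ends were near the limit of counting. In the wild-type degradome the members held 408 counts together, 0.0534% of that library. A total of 67 members were at 0, and the highest had 7 counts. In the colchicine degradome 160 members were at 0 and the other 40 had at most 1 count. The sum there was 39 counts, 0.0220% of that library, and 59 members were at 0 in both. A count of 0 still allows 3.92 CPM in the wild-type library and 17.0 CPM in the colchicine library, since 3 counts are the floor. The colchicine floor lies above the limit of 10 CPM. At that depth the limit separates 1 count from 2, because 10 CPM is 1.77 counts there and 7.65 counts in wild type. Intervals and floors here cover counting error only, as no molecular identifiers are recorded.

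**Figure D2:**
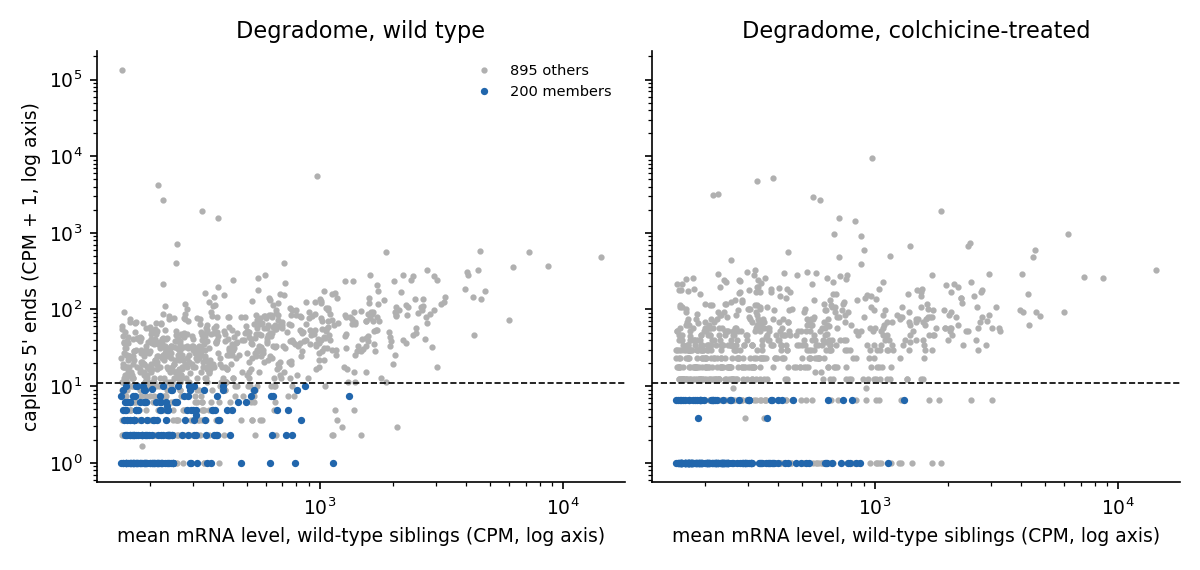
Capless 5′ ends (CPM + 1, log axis) against mean wild-type sibling mRNA level (CPM, log axis) in the wild-type (left) and colchicine (right) degradome libraries. Blue points are the 200 members, grey points are 895 other transcripts as abundant, and the dashed line is the limit of 10 CPM that chose the members. Members lie below the line by construction, and in colchicine 160 of them are at 0.

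Members just inside a limit and transcripts just past it differed by little on the degradome side. In wild type t9677aep had 7 counts (9.15 CPM) and stayed, while t13960aep had 8 counts (10.5 CPM) and was left out. In colchicine t9945aep, which shares its single count with most of the other members above 0, had 5.65 CPM and t10570aep had 2 counts (11.3 CPM). These pairs lie within counting error of each other. For Hywi antisense, t21150aep had 0.522 CPM in wild type against 2.11 CPM for t10854aep, and t12094aep had 0.963 CPM in colchicine against 1.14 CPM for t1649aep. For Hyli sense in colchicine, t22793aep had 47.9 CPM and t4123aep 59.4 CPM. The wild-type Hyli limit bound no transcript by itself, and the highest member there was t9677aep with 20.2 CPM.

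The rule used only a single strand of each IP, so the Hywi sense and Hyli antisense columns were left to describe the members. Hywi sense was not independent of the rule, because it partly followed Hyli sense, which the rule limited. Their Spearman correlation across members was 0.41 in wild type and 0.37 in colchicine. Across the 895 others it was 0.43 and 0.50. A gap between members and others in Hywi sense may thus partly follow from the choice. The members carried little on these strands as well. Much of it lay on a few transcripts, which held for the other abundant transcripts too. In the wild-type Hywi IP they held 8854 sense counts, or 3149 CPM (95% exact Poisson interval 3084 to 3216). This was 0.315% of the column, beside 5.44% of the mRNA of the wild-type siblings, which were other animals than those of the IP. The 895 other transcripts held 20.1% of the column, beside 58.2% of the sibling mRNA. In colchicine the members held 11399 Hywi sense counts, or 4187 CPM (4111 to 4265), which was 0.419% of the column against 34.3% in the others. The sense and antisense columns were scaled to their own totals, so levels are not compared between columns.

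The median member had 8.89 CPM of Hywi sense small RNA in wild type and 6.34 CPM in colchicine, and the median of the others was 27.7 and 28.3 CPM. The others reach higher mRNA levels, up to 14253 CPM. Among transcripts of at most 300 CPM of mRNA, the 154 members had a median of 8.71 CPM in wild type, and 6.34 CPM in the colchicine library, and the 406 others had 16.7 and 17.3 CPM. The difference was therefore smaller within that band. Members with more mRNA did not carry more of these reads, with a Spearman correlation of 0.05 across the 200 in wild type, against 0.33 across the others. In colchicine the correlations were -0.01 and 0.17. The members reach only 1316 CPM of mRNA, and no correlation was computed within a shared range. The lower values are therefore not shown to be particular to the members. In all 4 of these columns 83 members (41.5%) stayed under 10 CPM, as did 150 of the others (16.8%). Over all 38747 transcripts, at any mRNA level, 7037 reached 10 CPM of Hywi sense in either condition and 7615 of Hyli antisense. Most of the table thus stayed under 10 CPM, and low counts there are not particular to the members.

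The most Hywi sense small RNA lay on t12086aep, with 367 counts (130.5 CPM) in wild type and 1225 counts (449.97 CPM) in colchicine. Its mRNA was even, at 262, 258 and 251 CPM in wild-type and 271, 256 and 249 CPM in knockdown libraries. Next was t18848aep, with 182 counts (64.7 CPM) in wild type and 1123 counts (412.5 CPM) in colchicine. Both had more Hywi sense CPM in the colchicine library, and both had under 0.4 CPM of Hywi antisense in either condition. The order of the members was partly shared by the conditions, with a Spearman correlation of 0.64 over 200 members that share 2 IP libraries and their mapping. The 10 members with most counts held 35.8% of the members' sum in wild type and 46.7% in colchicine. Among the 895 others the first 10 held more of their sum, 70.5% and 66.8%.

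The Hyli antisense column gave medians of 0.729 CPM in wild type, and 1.60 CPM in the colchicine library. The sums were 4654 counts, or 397 CPM (386 to 409), and 10090 counts, or 1638 CPM (1607 to 1671). The colchicine sum rested on a few members, since the first 10 held 75.7% of it, and the first 10 of the others held 81.0% of theirs. A single transcript, t22135aep, had 5699 of those counts (925 CPM) in colchicine and 16.6 counts (1.42 CPM) in wild type. Its Hyli sense counts were 35 in wild type and 0 in colchicine. In mRNA it had 383, 285 and 238 CPM in wild-type libraries 1 to 3 and 501, 343 and 275 CPM in knockdown libraries, so that library 1 was highest in each group. Another, t5075aep, had 657 counts (107 CPM) in colchicine and 1.43 counts (0.122 CPM) in wild type. Without the first 10, the colchicine sum was 399 CPM and the wild-type sum without its own first 10 was 240.2 CPM. Of the Hyli IP counts on members, 76.0% were sense in wild type and 49.8% in the colchicine library, where the others had 82.0% and 85.9% and all transcripts 71.1% and 52.0%. The rule limited the sense counts behind these shares, and t22135aep alone supplied 5699 of the 10090 antisense counts in colchicine. Of the members' values above 0 in colchicine, 5.32% were whole numbers for Hyli antisense and 94.5% for Hywi sense. The share of counts that was split among transcripts was not measured.

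**Figure D3:**
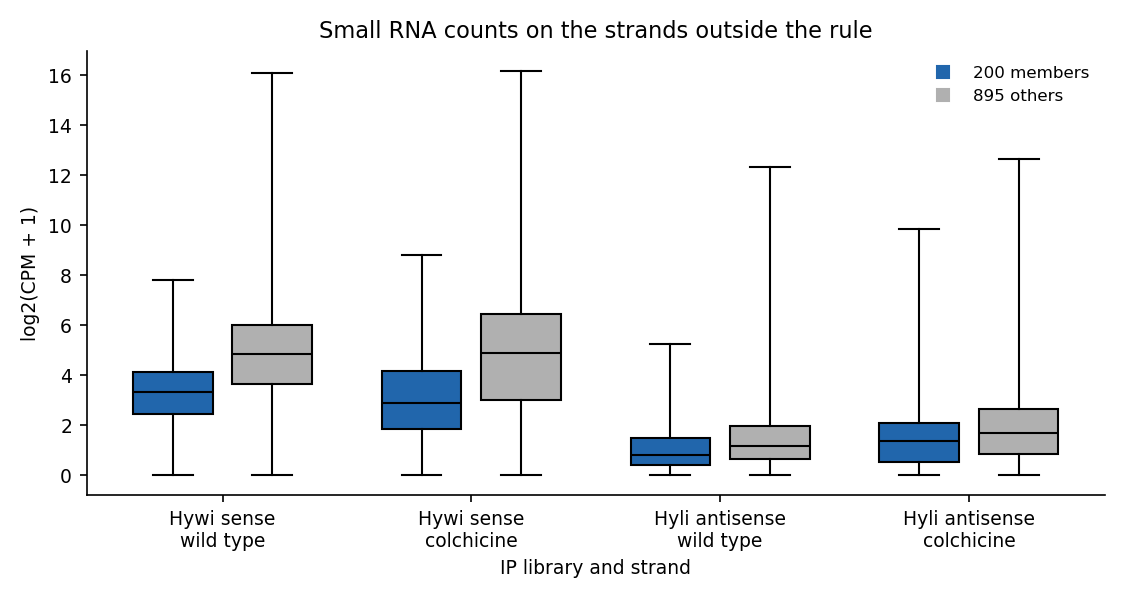
Small RNA as log2(CPM + 1) on the strands that the rule did not use, for the 200 members (blue) and 895 other transcripts as abundant (grey), in each IP library. Boxes span the quartiles with a line at the median, and whiskers reach the lowest and highest transcript. The boxes overlap in each column, and the median of the members is the lower of the pair in all 4.

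Between the conditions, differences of members were near those of the whole table for Hywi sense gains. Of 112 members with at least 10 CPM in either condition, 14 were at least 4-fold higher in colchicine on the log2(CPM + 1) scale, or 12.5%, where 14.3% of all 7037 such transcripts were. At least 4-fold lower were 10 members (8.93%), where 30.2% of all were, while the 734 others had 8.72%. For Hyli antisense only 19 members reached 10 CPM. Of these 10 were at least 4-fold higher (background 29% of 7615) and 4 were at least 4-fold lower (background 18.7%). Among the 142 other abundant transcripts that reached 10 CPM, the shares were 35.9% and 14.8%. With 1 library per condition there is no replicate check on any of these values.

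In the mRNA libraries the members moved together by replicate number, as did the other abundant transcripts. Each member's log2 CPM, scaled by TMM, was centred on its group mean. Across the 200 members, libraries of the same number then correlated at 0.89, 0.74 and 0.57 for numbers 1, 2 and 3, and those of different number between -0.86 and 0.66. In the other abundant transcripts the same-number values were 0.80, 0.68 and 0.37. The median member had 61.9% of its sum of squares between numbers, 22.6% between knockdown and wild type and 11.2% in the rest, and number exceeded group in 163 of 200. These shares were 59.1%, 20.5% and 13.7% in the others, where number exceeded group in 746 of 895. There are 3 numbers and 2 groups, so number takes the larger share of a sum of squares even without an effect. The labels do not say what a number marks.

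Library 1 was lowest in both groups in 132 members (66%), where 24.7% of all 19683 tested transcripts were, and 528 of the other abundant transcripts were (59.0%). It was highest in both groups in 25 members, with 27.5% of all transcripts. Scaling to library totals gave 105 members lowest (16.7% of all) and 42 highest (37.7% of all). Libraries 2 and 3 were lowest in both groups in 8 (background 11.6%) and 11 (13.9%) members, and highest in 14 (9.68%) and 30 (12.5%). Other abundant transcripts thus shared the low values of the first pair. With TMM scaling, number 1 lay on average 0.151 log2 units below the group means for the median member. It lay by more than 0.2 below for 68 members and above for 16. Among the 895 others the median was -0.115, with 251 below and 82 above. In plain CPM the members' median deviation was -0.074 in wild-type library 1 and -0.084 in knockdown library 1. For the others these were -0.042 and -0.050.

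The member with the largest spread was t25395aep, with 141, 438 and 507 CPM in wild type and 126, 440.2 and 453 CPM in knockdown. Library 1 was far below the others in both groups, and its SD of log2 CPM after removing group means was 1.03. The next, t38416aep, was high in library 1, with 527, 131 and 269 CPM in wild type and 427, 112 and 174 CPM in knockdown (SD 0.995). At the other end t13280aep had 467, 455 and 455 CPM in wild type and 448, 448 and 449 CPM in knockdown (SD 0.0146). The transcript t11137aep was as even, between 200.2 and 211 CPM in all 6 libraries (SD 0.0223). The median SD over members, from plain CPM as for the single members above, was 0.137, beside 0.144 in the others. With TMM scaling the median over members was 0.188. Without both libraries of number 1 the medians of 0.137 and 0.144 became 0.0820 and 0.0892, and members with an SD over 0.5 went from 9 to 2. With all libraries, 4.5% of the members and 3.35% of the others had an SD over 0.5.

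**Figure D4:**
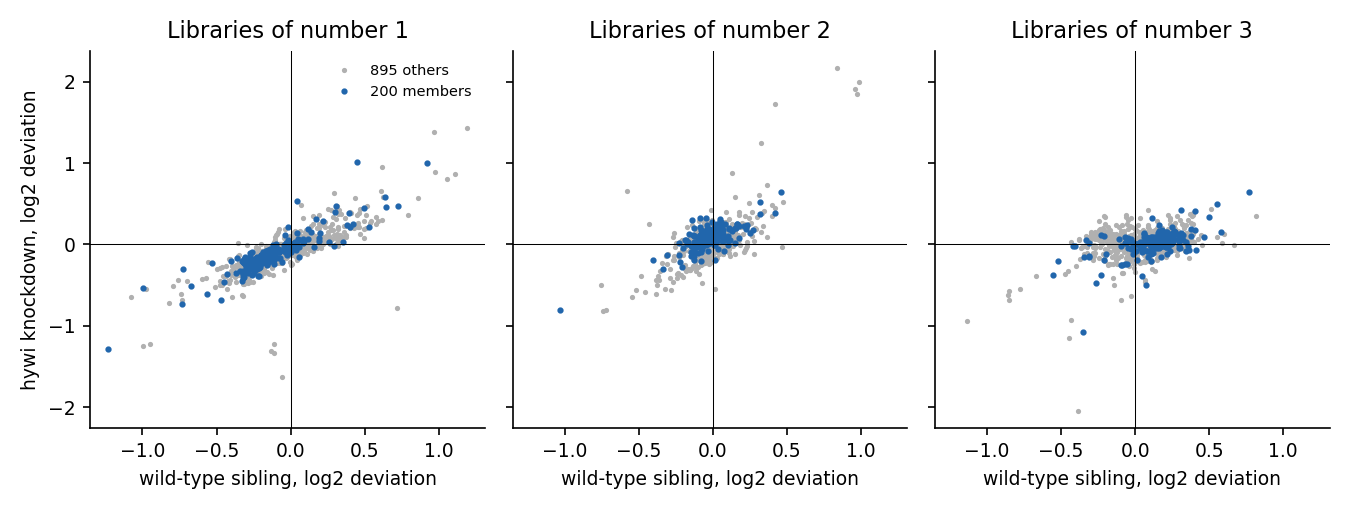
Deviation of log2 CPM (TMM-scaled) from the group mean in the hywi knockdown library (vertical axis) against the wild-type sibling library (horizontal axis) of the same number, 1 panel per number. Each point is a transcript, blue for the 200 members and grey for 895 others as abundant. Members lie closest to a line in the panel of number 1, with correlations of 0.89, 0.74 and 0.57 for numbers 1, 2 and 3.

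The comparison of hywi knockdown with wild-type siblings asks whether these piRNA-poor transcripts changed when hywi was targeted. No member passed the main test, which had no replicate block and so left the pairing by number out. All 200 were tested, and 0 were higher (0% of all 19683 transcripts) and 0 were lower (0%) in edgeR's quasi-likelihood test with Benjamini-Hochberg adjustment, with no adjusted p below 0.875. Without adjustment, p lay under 0.05 for 0 members higher (2.93% of all) and 0 lower (0.716% of all), and DESeq2 called 0 members. Levels in plain CPM were close between groups. The ratio of knockdown to wild-type mean had a median of 0.954 and ran from 0.769 to 2.07, and 195 of 200 members lay between 0.8 and 1.25. The share of other transcripts within that band was not counted, so closeness is not shown to be particular to the members. Because the wild-type libraries also ranked the members, the comparison is not independent of the choice. Nothing says that libraries of a group came from separate cultures, so p-values measure only the spread between these libraries. In whole-animal RNA, fewer cells of a type and less RNA per cell cannot be told apart.

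The small differences leaned to lower values in knockdown, as in other abundant transcripts. The median log2 fold change was -0.15 over members, -0.12 over the others and 0.02 over all tested. It was below 0 in 180 members (90%), in 76.9% of the others and in 47% of all. Scaling to library totals gave 152 members below 0, where 32.5% of all were, and medians of -0.07 for members, -0.04 for the others and 0.10 for all. With TMM scaling 13 members had all knockdown libraries below all wild-type ones (3.85% of all transcripts) and 0 had them above (5.2% of all). In plain CPM these were 6 (2.01% of all) and 2 (7.08% of all). Knockdown was lower in all 3 pairs of equal number in 120 members (20.3% of all, 52.3% of the others) and higher in 6 (20.1% of all). In plain CPM it was lower in 84 (11.3% of all) and higher in 13 (29.4% of all).

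With the replicate number as a block, edgeR called 0 members higher (1.17% of all transcripts) and 0 lower (0.0914% of all), with no adjusted p of a member below 0.0611. Without adjustment, p lay under 0.05 for 2 higher (8.51% of all) and 40 lower (5.24% of all), while the other 895 had 15 and 123. DESeq2 with the block called 0 members higher (0.777% of all) and 5 lower (0.208% of all). The 5 were t7148aep, t25351aep, t32130aep, t37754aep and t38416aep, named after their values were seen, with log2 fold changes from -0.50 to -0.39 and adjusted p from 0.00352 to 0.0276. All 5 were lower in knockdown in each of the 3 pairs. For t38416aep the unblocked log2 fold change was -0.47, and 0.08 without wild-type library 1. For example t37754aep had 154, 245 and 269.9 CPM in wild-type libraries 1 to 3 and 119, 191 and 227 CPM in knockdown, groups that overlap unless paired by number.

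The members nearest to a difference without the block are given as values. The level of t37740aep was 508, 336 and 262 CPM in wild type and 1350.4, 642 and 299 CPM in knockdown, higher in each pair, with knockdown library 3 inside the wild-type range. Its log2 fold change was 0.96 (SE 0.45, adjusted p = 0.875), and 0.77 with the block (SE 0.19, adjusted p = 0.0921), by edgeR. Leaving out pair 2 or pair 3 brought the blocked adjusted p to 4.6e-04 and 0.00314, and leaving out pair 1 brought it to 0.395 with a log2 fold change of 0.49. Without the block and without knockdown library 1 the log2 fold change was 0.32. The ratio of knockdown to wild type was widest in pair 1 and smallest in pair 3. For t17225aep the values were 165, 142 and 151 CPM in wild type and 327, 201 and 150.3 CPM in knockdown, so that knockdown library 3 lay among the wild-type values. Its log2 fold change was 0.47 (SE 0.23, adjusted p = 0.875, edgeR), and the blocked adjusted p was 0.294. It was 0.0219 without pair 3, 0.230 without pair 2 and 0.865 without pair 1. Without knockdown library 1 the unblocked log2 fold change was 0.15.

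Among lower values, t11183aep had 342, 384 and 402 CPM in wild type and 307, 341 and 329 CPM in knockdown, with a log2 fold change of -0.29 (SE 0.14). The transcript t17307aep had 279, 265 and 316 CPM in wild type and 252, 249 and 255 CPM in knockdown, with -0.27 (SE 0.13). In both, every knockdown library lay below every wild-type library in CPM. By edgeR both had an adjusted p of 0.875 without the block, and 0.240 and 0.296 with it.

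**Figure D5:**
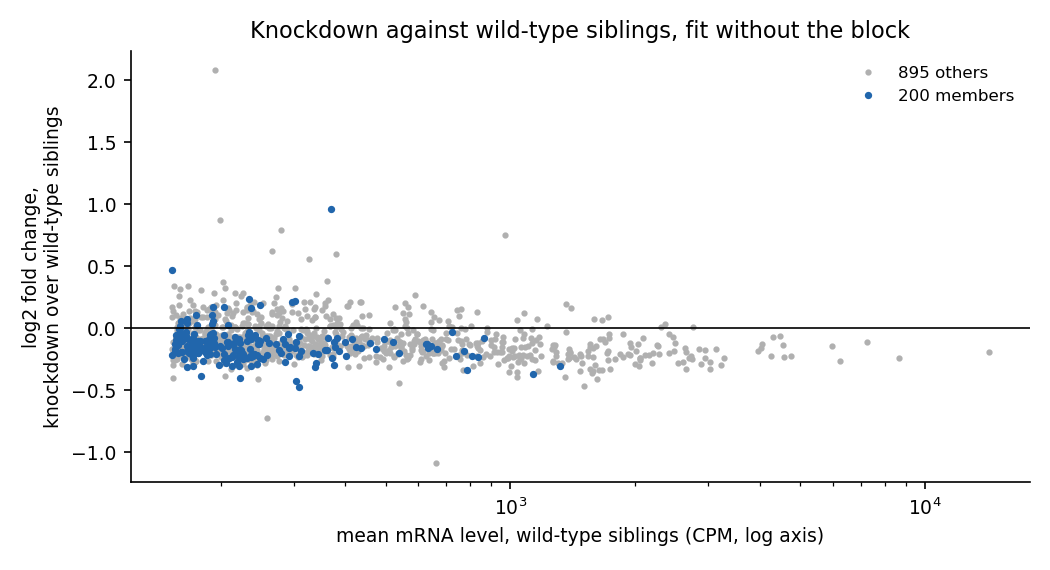
Log2 fold change of hywi knockdown over wild-type siblings (edgeR, TMM, no replicate block) against mean wild-type sibling mRNA level (CPM, log axis). Each point is a transcript, blue for the 200 members and grey for 895 others as abundant. Members run from -0.47 to 0.96 with a median of -0.15, and 0 of them passed an adjusted p of 0.05.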

How the data were processed

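The authors deposited unnormalized estimated counts, many with decimals, for 6 mRNA libraries, for sense and antisense small RNA of 4 IP libraries, and for sense reads of 2 degradome libraries. The submitters' processing notes name Trimmomatic 0.33, cutadapt, RSEM 1.2.31 and Bowtie (1.1.2 for mRNA). Such estimated counts split reads among similar transcripts, so values of transcripts that share sequence are uncertain. The mRNA kit is stranded, per the labels' protocols. CPM was computed per column.

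mRNA counts were rounded, filtered by filterByExpr, scaled by TMM and compared in edgeR 4.0.16 (R 4.3.3) by the two-sided quasi-likelihood test, adjusted over all 19683 transcripts at 0.05. DESeq2 1.42.0 and other scalings were alternatives, and the fits were tested on simulated data. TMM-scaled log2 CPM used a prior count of 2, and the SDs of single transcripts used plain CPM without a prior count. Same-number deviations correlated at 0.62, 0.27 and 0.30 over all tested transcripts, each above 0.1. Equal numbers were therefore treated as pairs in the counts by pair and in alternative fits with a block. The main fit had no block and left this pairing out. That pairing comes from the data, not the labels.

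Members, lists and tests were chosen with earlier results of these data known. Transcripts were named by rank (first 10 and last), nearness to each limit, smallest p, most small RNA on the strands outside the rule, and largest or smallest SD. Others are said to be named after their values were seen.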

Additional observations from a re-analysis of the deposited data

How the results depend on the processing

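Without the replicate block, other scalings, filters and rounding gave 0 members called. All-transcript calls were 0 higher and 0 lower, except in DESeq2 with 2 and 1. The replicate block gave 231 higher and 18 lower over all transcripts (members 0 and 0). Counts not rounded gave 233 and 18, RLE size factors 247 and 37 (1 member lower, t37754aep), library totals 123 and 2, and DESeq2 153 and 41 (5 members lower), all with the block. Leaving out a single library without the block gave 0 and 0, and leaving out pair 1, 2 or 3 under the block gave 219, 357 and 365 higher and 16, 105 and 52 lower. Members then numbered 0 to 3 in each direction. With the block and without pair 2, t37740aep was called higher and t15459aep, t22793aep and t38416aep lower. Without pair 3, t15231aep, t17225aep and t37740aep were called higher and t30027aep and t37754aep lower. Why the calls differ between pairs was not tested. The median log2 fold change of members ran from -0.21 to -0.07 over all fits. The 4 members named for a small p kept their direction. Of 32 named members, 8 had the opposite sign in at least 1 fit. They were t12086aep, t19254aep, t21150aep and t7698aep with library totals (0.01 to 0.05), t5075aep with totals and the block, and t22135aep, t25395aep and t38416aep when a library was left out.

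The member list turned on the degradome limits. Limits of 5 CPM kept 127 of the 200, limits of 20 CPM kept 120, and no degradome limit kept 15, because more abundant transcripts then entered. The remaining 10 changes of the rule kept 149 to 196. Without the 10 members with most counts, summed CPM was 2023 (Hywi sense, wild type), 2230.1 (Hywi sense, colchicine), 240.2 and 399 (Hyli antisense, wild type and colchicine). Scaled to both strands together, the sums were 398, 589, 115 and 786 CPM. Depth limits the degradome most, with 1.77 counts at 10 CPM in colchicine.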
